A study of Mus musculus with 18 samples.

Results

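The liver expression of 9 genes of amino acid catabolism was examined in mice on chow, mice on a high-fat diet and mice on that diet treated with a plant alkaloid preparation. The genes were Tat, Hpd, Hgd, Fah, Tdo2, Got1, Gpt, Gpt2 and Prodh, taken by their names from a table of 54532 annotated mouse genes. All 9 were among the 10216 genes with a mean of at least 1 FPKM (sequenced fragments normalised to gene length and to library size) over the 18 mice. High-fat livers held less mRNA than chow livers for 6 of the 9, led by Got1, and more for Prodh, while no difference was called for Fah or Gpt. None of the 9 passed the test between SZ-A-treated and untreated high-fat livers, although Tat and Hpd lay 1.56-fold and 1.21-fold higher after SZ-A.

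Liver RNA came from 6 mice in each of 3 groups, all C57BL/6 and, by the methods, male C57BL/6J and 6 weeks old on arrival. NC mice ate normal chow. HFD and SZ-A mice ate a high-fat diet (D12492), which was fed for 14 weeks before saline (HFD) or SZ-A was given for a further 8 weeks by the deposited description, whereas the methods text gives a shorter period. SZ-A stands for Ramulus Mori (Sangzhi) alkaloids, the alkaloid fraction of mulberry twig, and the dose and route of the sequenced mice are not given in the sources used here. All mice of the study were fasted overnight before the tissue was taken. For NC6 the diet label reads high-fat while the title reads chow, and the title was followed. Results of the 9 genes are also given without it.

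The liver removes most amino acids that exceed the needs of protein synthesis. Tyrosine is broken down through a short chain of enzymes, in which Tat transfers the amino group, Hpd forms homogentisate, Hgd opens the aromatic ring and Fah releases fumarate and acetoacetate. Tdo2 starts the breakdown of tryptophan along the kynurenine pathway. Got1, Gpt and Gpt2 move amino groups between glutamate and aspartate or alanine, which links amino acids to the urea cycle and to gluconeogenesis, and Prodh starts the oxidation of proline in mitochondria. Tat and Tdo2 are known as classical targets of glucocorticoids in liver, and several of these enzymes follow fasting and protein intake.

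Because 6 of the 9 genes were lower together in HFD livers, the DNA before their RefSeq start sites was read. RefSeq promoter windows on GRCm38.p6 were matched for 8 of the 9, Gpt being the exception. The windows of Got1, Tat and Hgd are printed as the genes with the lowest HFD levels relative to NC, and that of Fah as an enzyme of the same chain without a called difference. Each line gives the 250 bases before the RefSeq start, which for Fah lies inside the gene span of the expression table, in no annotated exon, 5′ to 3′ on the gene's strand, and the capitals mark CCAAT on either strand (ATTGG when it lies on the opposite strand). The windows lie at chr19:43524606-43524855 on the minus strand (Got1), chr8:109990186-109990435 on the plus strand (Tat), chr16:37579903-37580152 on the plus strand (Hgd) and chr7:84605943-84606192 on the minus strand (Fah).
Got1: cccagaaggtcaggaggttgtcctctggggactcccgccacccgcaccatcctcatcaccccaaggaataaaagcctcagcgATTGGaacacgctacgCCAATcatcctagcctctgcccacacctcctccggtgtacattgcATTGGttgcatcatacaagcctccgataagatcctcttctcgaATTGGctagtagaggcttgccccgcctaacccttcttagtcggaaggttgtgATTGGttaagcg
Tat: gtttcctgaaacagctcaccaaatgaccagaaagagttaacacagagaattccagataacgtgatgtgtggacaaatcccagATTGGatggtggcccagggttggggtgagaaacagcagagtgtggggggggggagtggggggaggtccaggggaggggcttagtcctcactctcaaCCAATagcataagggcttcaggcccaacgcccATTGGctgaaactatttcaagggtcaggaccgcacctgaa
Hgd: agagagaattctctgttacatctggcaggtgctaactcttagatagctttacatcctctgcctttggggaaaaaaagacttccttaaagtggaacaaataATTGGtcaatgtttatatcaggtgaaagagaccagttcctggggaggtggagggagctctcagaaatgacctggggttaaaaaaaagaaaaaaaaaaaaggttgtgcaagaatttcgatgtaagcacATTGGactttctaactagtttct
Fah: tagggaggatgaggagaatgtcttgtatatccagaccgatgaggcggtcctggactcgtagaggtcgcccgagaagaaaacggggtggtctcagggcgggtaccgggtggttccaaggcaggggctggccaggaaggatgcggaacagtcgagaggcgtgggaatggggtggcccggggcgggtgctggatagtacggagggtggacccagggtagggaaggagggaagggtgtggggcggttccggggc

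CCAAT was found 5 times in the Got1 window, 3 times in that of Tat, 2 times in that of Hgd and 1 time in that of Tdo2, and its letters were not in the windows of Fah, Hpd, Gpt2 and Prodh. Over all 32851 windows of this length 33.8% held it. All 250 bases of the Tdo2 window, 102 of the Prodh window and 4 of the Hpd window lie in annotated exons of these genes, since other transcripts start further upstream. GGGCGG, the core of the GC box, was found 3 times in the Fah window, 2 times in that of Gpt2 and 1 time in that of Hpd, against 32.7% of all windows. TATAAA was in the windows of Tdo2 and Hgd (12.4% of all windows), AGGTCA in those of Tdo2, Hgd and Got1 (14.0%), and CACCC in 6 of the 8 (52.0%). AGAACA, part of the sequence bound by the glucocorticoid receptor, TGACG, part of the cAMP response element, and CACGTG, an E-box, were in 0 of the 8 windows and in 16.1%, 17.8% and 6.02% of all windows. These letters were searched on both strands in a short window and describe sequence, not bound sites.

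The libraries held 17163191 to 20493907 fragments on genes, and each of the 9 genes rested on at least 1586 fragments in every mouse. No 2 mice of a group had near-identical counts. All 10 hepatocyte markers were detected. Their summed levels were 53151 to 78482 FPKM (NC), 38045 to 61183 (HFD) and 45988 to 73365 (SZ-A). Of the 10, 2 were called lower in HFD than in NC, and the median log2 difference was -0.13. The sum is weighted towards the most abundant of these markers, led by Alb. All 8 stellate cell markers were detected, at summed levels of 42.8 to 60.6 FPKM (NC), 51.4 to 103 (HFD) and 47.2 to 63.8 (SZ-A), with 6 of 8 called higher in HFD than in NC. The 8 macrophage markers summed to 91.3 to 195, 145 to 303 and 169 to 216 FPKM in the same order, with 3 called higher in HFD than in NC and 1 called lower in SZ-A than in HFD. The 5 adipocyte markers summed to 1.49 to 8.64, 24.0 to 138 and 2.62 to 33.6 FPKM. Most of that sum was Cfd (mean over all mice 20.96 FPKM), followed by Fabp4 (2.15). Only Cfd and Fabp4 could be tested, and both were called higher in HFD than in NC (median difference 2.85). Adipoq, Plin1 and Lep had means of only 0.119, 0.03 and 0.012 FPKM and were not tested. The sum therefore follows Cfd and cannot be read as adipocyte content. The part of these shifts in the results below was not tested. In bulk liver, fewer cells of a type and less RNA per cell cannot be told apart.

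Differences were tested with limma on log2(FPKM + 0.1), with p-values adjusted by Benjamini-Hochberg over the 10216 genes, and calls required a fold change over 1.2 at an adjusted p under 0.05. All fold changes below are on that log2 scale, and all levels are FPKM. In HFD against NC, 6 of the 9 genes were called lower, where 9.49% of all genes tested were, and 1 was called higher, where 10.7% of all genes were. In SZ-A against HFD, 0 of the 9 were called by limma, against 0.147% of all genes, and 3 (Tat, Hpd and Hgd) had an unadjusted p under 0.05, as did 1515 of the 10216 genes. Voom on whole fragments also called 0 of the 9. In SZ-A against NC, 4 of the 9 were called lower, against 4.3% of all genes, and 0 were called higher, against 5.31% of all genes. An unadjusted p under 0.05 was found for 6 of the 9 and for 2602 of the 10216 genes. The comparisons share mice and are not independent of each other. The 9 genes were chosen with earlier results of these data known, so their counts beside the shares of all genes are description and carry no test.

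**Figure D1:**
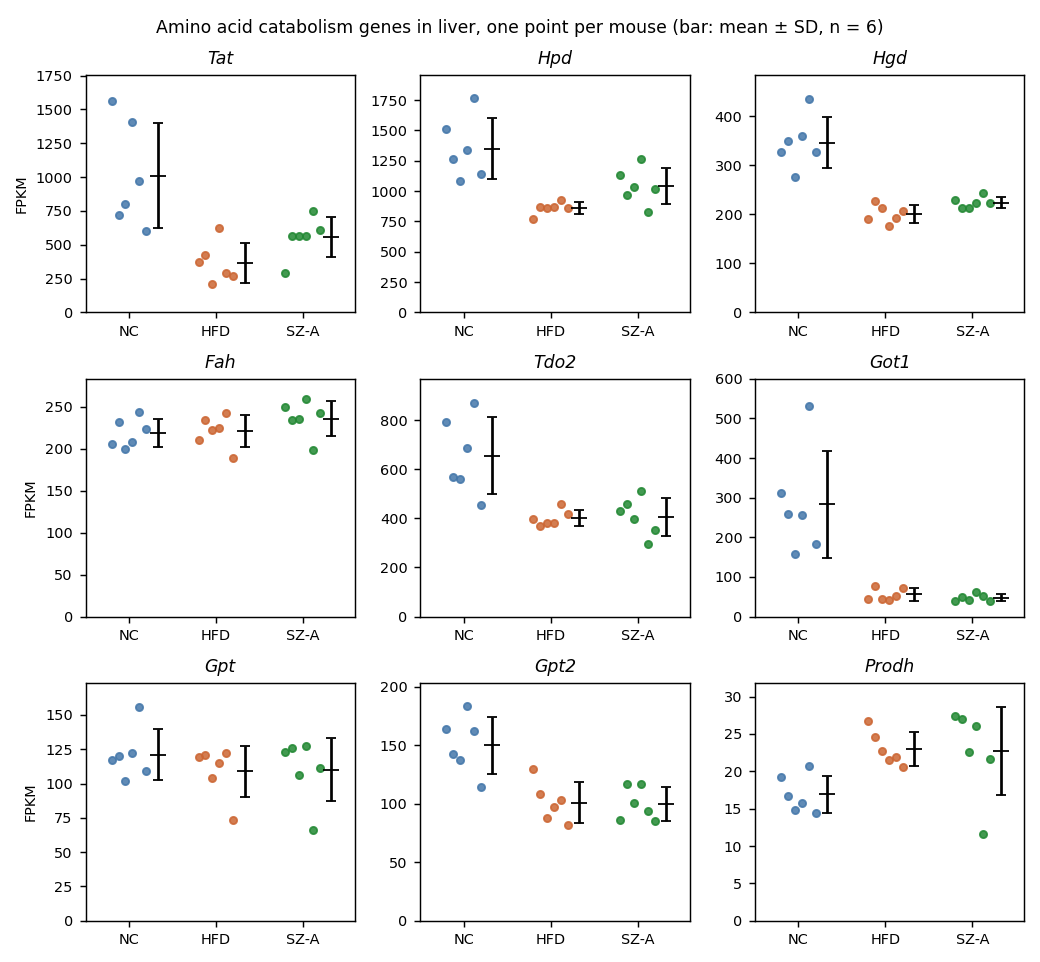
FPKM of each gene (vertical axis, from 0) in the 6 mice of each group, with the mean and SD beside the points. Hpd, Hgd and Got1 are lower in all 6 HFD mice than in any NC mouse, and the 3 groups cover the same range for Fah.

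**Figure D2:**
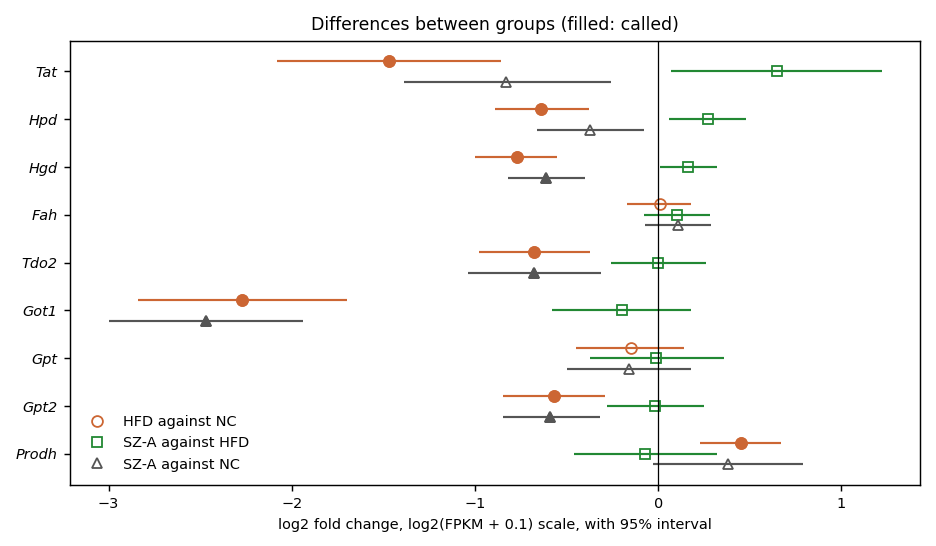
Log2 fold changes of the 9 genes (horizontal axis) with their 95% intervals for the 3 comparisons, filled where called. The HFD to NC difference runs from -2.27 for Got1 to 0.45 for Prodh, and no SZ-A to HFD difference is filled.

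Of the 4 genes of tyrosine breakdown, Tat, Hpd and Hgd were called lower in HFD livers and Fah was not called. Tat (ENSMUSG00000001670, mm10 chromosome 8, 109990437 to 109999803, plus strand), the aminotransferase that commits tyrosine to breakdown, ranged from 601 to 1560 FPKM in NC mice (median 884) and from 208 to 624 in HFD mice (median 330), with SZ-A values of 292 to 750 (median 563). NC and HFD overlapped only through NC6, the lowest NC mouse, and HFD4, the highest HFD mouse. Tat was 2.77-fold lower in HFD than in NC (log2 fold change -1.47, SE 0.28, adjusted p = 0.00297 by limma). Among SZ-A mice 5 of 6 lay above the HFD mean, and the difference of 0.65 (95% interval 0.07 to 1.22) had an adjusted p of 0.275. Against NC, SZ-A livers stood at -0.83 (adjusted p = 0.0637). That difference was called without NC6 (-0.96, adjusted p = 0.0372) and without SZ-A5 (-0.92, adjusted p = 0.0433). Tat was also the most uneven of the 9 genes within HFD mice, with an SD of 40.5% of the mean, and within NC mice its SD was 38.5% of the mean.

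Hpd (ENSMUSG00000029445, chromosome 5, 123171807 to 123182727, minus strand), hydroxyphenylpyruvate dioxygenase, was the most abundant of the 9 and ranked 54th of all genes by mean FPKM. It ranged from 1082 to 1765 FPKM in NC mice (median 1303) and from 768 to 929 in HFD mice (median 864), with SZ-A values of 831 to 1268 (median 1025). No HFD mouse reached the lowest NC mouse, while SZ-A mice lay across both groups. The HFD mean was 1.55-fold lower than the NC mean (-0.64, SE 0.12, adjusted p = 0.00235). SZ-A livers stood between, at 0.27 above HFD (95% interval 0.06 to 0.48, adjusted p = 0.218) and at -0.37 against NC (adjusted p = 0.105).

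Hgd (ENSMUSG00000022821, chromosome 16, 37580153 to 37632020, plus strand), homogentisate dioxygenase, ranged from 277 to 436 FPKM in NC mice (median 338) and from 176 to 228 in HFD mice (median 199), with SZ-A values of 213 to 243 (median 224). Every HFD and every SZ-A mouse was below every NC mouse. Hgd was 1.71-fold lower in HFD than in NC (-0.77, SE 0.11, adjusted p = 0.000417) and 1.53-fold lower in SZ-A than in NC (-0.61, adjusted p = 0.00294). All 6 SZ-A mice were above the HFD mean, but the difference was only 0.16 (95% interval 0.01 to 0.32, adjusted p = 0.315) and the groups overlapped.

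Fah (ENSMUSG00000030630, chromosome 7, 84585159 to 84606722, minus strand), fumarylacetoacetate hydrolase, ranged from 200 to 244 FPKM in NC mice (median 216) and from 189 to 243 in HFD mice (median 223), with SZ-A values of 199 to 259 (median 239). The 3 groups overlapped over most of their range. HFD differed from NC by 0.01, with a 95% interval of -0.17 to 0.18 (adjusted p = 0.954), and SZ-A from HFD by 0.10, with an interval of -0.08 to 0.28 (adjusted p = 0.61). As Fah closes the chain, its level was used to express the other enzymes within each mouse. The ratio of Hpd to Fah had medians of 5.95 (NC), 3.83 (HFD) and 4.29 (SZ-A), and that of Hgd to Fah 1.55, 0.932 and 0.915. Neither ratio overlapped between NC (lowest 5.09 and 1.38) and HFD mice (highest 4.56 and 1.09). The ratio of Tat to Fah had medians of 3.98, 1.60 and 2.41. The ratios were formed from the same values as the comparisons above and carry no test of their own.

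Of the 5 other genes of phenylalanine and tyrosine breakdown tested, 1 was called lower in HFD and 0 higher, with a median difference of -0.12 against -0.03 for all genes. The gene called was Qdpr, which regenerates the cofactor of phenylalanine hydroxylase (138 ± 31.9 FPKM in NC and 101 ± 9.17 in HFD, mean ± SD, n = 6 each, -0.42, adjusted p = 0.031). That call was lost in 9 of 24 alternatives, among them no filter on low values, the common sum and leaving out NC2, NC6, HFD1, HFD2, HFD3, HFD4 or HFD6 (without NC6 -0.41, adjusted p = 0.0529).

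In the kynurenine pathway Tdo2 mRNA was lower in HFD livers and Ido2 mRNA higher, and the genes of later steps were called in both directions. Tdo2 (ENSMUSG00000028011, chromosome 3, 81957090 to 81976202, minus strand), the tryptophan dioxygenase of hepatocytes, ranged from 456 to 868 FPKM in NC mice (median 626) and from 368 to 460 in HFD mice (median 390), with SZ-A values of 294 to 510 (median 412). NC6 at 456 was the only NC mouse within the HFD range. Tdo2 was 1.60-fold lower in HFD than in NC (-0.68, SE 0.14, adjusted p = 0.00512) and 1.60-fold lower in SZ-A than in NC (-0.68, adjusted p = 0.0252). The SZ-A to HFD difference was 0.00 with a 95% interval of -0.26 to 0.26 (adjusted p = 0.997), and 3 of 6 SZ-A mice were above the HFD mean. The call against NC in SZ-A mice was lost without NC1, NC4, SZ-A3 or SZ-A6, with adjusted p-values of 0.0541, 0.0517, 0.0551 and 0.06.

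Of the 10 other genes of the kynurenine pathway tested, 3 were called lower and 2 higher in HFD than in NC, with a median of 0.06. Acmsd, which steers an intermediate away from NAD synthesis, was at 7.90 ± 4.74 FPKM in NC and 2.19 ± 0.897 in HFD (-1.69, adjusted p = 0.00402). Kynu, kynureninase, fell by 0.73 (adjusted p = 0.00072), and Aadat, an aminotransferase that also acts on kynurenine, fell by 0.44 (adjusted p = 0.00404). The call of Aadat was lost under the common sum. Ido2, which acts on tryptophan like Tdo2, was at 11.1 ± 1.19 FPKM in NC and 19.3 ± 2.17 in HFD, and rose by 0.80 (adjusted p = 0.000163). It therefore differed in direction from Tdo2, at a level far below it. Haao, which acts near the end of the pathway, rose by 0.32 (adjusted p = 0.0454), a call lost in 9 of the 12 fits that left out a mouse. In SZ-A against HFD none of the 10 was called, and Aadat had the smallest adjusted p among them (0.41, adjusted p = 0.088).

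Of the aminotransferase genes Got1, Got2, Gpt and Gpt2, Got1 and, with a smaller difference, Gpt2 were called lower in HFD livers. Other aminotransferases, such as Tat and Agxt, are given with their pathways. Got1 (ENSMUSG00000025190, chromosome 19, 43499752 to 43524605, minus strand), the aspartate aminotransferase of the cytosol, ranged from 158 to 531 FPKM in NC mice (median 257) and from 42.1 to 77.9 in HFD mice (median 48.5), with SZ-A values of 38.6 to 62.4 (median 45.7). The lowest NC mouse, NC3, was above the highest mouse of either other group, and NC6 at 182 was well above them too. Got1 was 4.82-fold lower in HFD than in NC (-2.27, SE 0.26, adjusted p = 0.000157), the 53rd largest difference of the 10216 genes. It was 5.55-fold lower in SZ-A than in NC (-2.47, SE 0.25, adjusted p = 0.000224), the 31st largest. SZ-A and HFD mice overlapped, with a difference of -0.20 (95% interval -0.58 to 0.18, adjusted p = 0.635). The ratio of Got1 to Got2, which encodes the mitochondrial enzyme, ran from 1.38 to 4.38 in NC mice, against 0.343 to 0.794 under HFD and 0.317 to 0.509 under SZ-A. The transcript of the cytosolic enzyme thus exceeded that of the mitochondrial enzyme in 6 of 6 NC mice and in 0 of 12 mice on the high-fat diet.

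Gpt (ENSMUSG00000022546, chromosome 15, 76695716 to 76699686, plus strand), the cytosolic alanine aminotransferase, ranged from 102 to 156 FPKM in NC mice (median 118) and from 73.7 to 122 in HFD mice (median 117), with SZ-A values of 66.3 to 127 (median 117). The groups overlapped and their medians differed by little. HFD differed from NC by -0.15 (95% interval -0.45 to 0.14, adjusted p = 0.448), and SZ-A from HFD by -0.01 (-0.37 to 0.36, adjusted p = 0.989). Gpt2 (ENSMUSG00000031700, chromosome 8, 85492576 to 85527560, plus strand), the mitochondrial alanine aminotransferase, ranged from 114 to 183 FPKM in NC mice (median 152) and from 81.6 to 130 in HFD mice (median 99.9), with SZ-A values of 84.9 to 117 (median 97.3). NC6 was again the only NC mouse within the HFD range. Gpt2 was 1.48-fold lower in HFD than in NC (-0.57, SE 0.13, adjusted p = 0.00845) and 1.5-fold lower in SZ-A than in NC (-0.59, adjusted p = 0.0116). SZ-A and HFD livers differed by -0.02 (95% interval -0.28 to 0.25, adjusted p = 0.967). The ratio of Gpt2 to Gpt had medians of 1.26 (NC), 0.869 (HFD) and 0.924 (SZ-A), and its ranges overlapped.

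**Figure D3:**
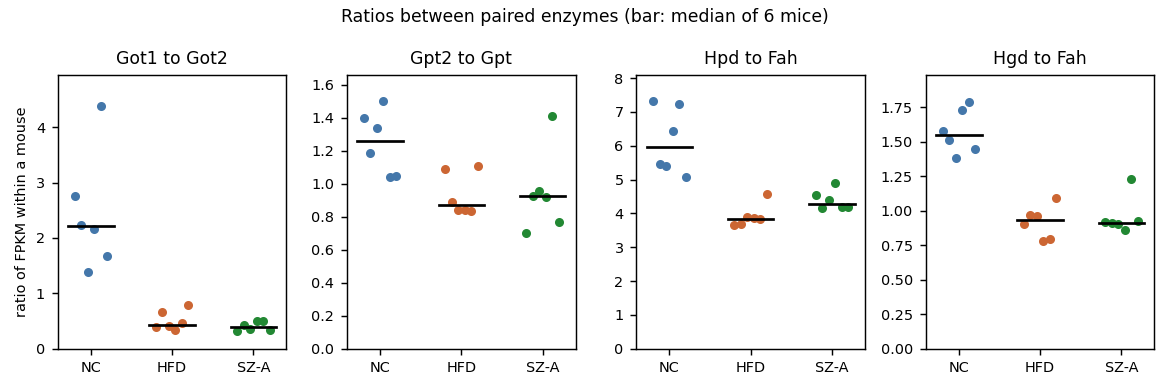
Ratios of FPKM between enzymes within a mouse (vertical axis, from 0), 1 point per mouse, with the median of each group as a bar. The Got1 to Got2 ratio lies above 1 in all 6 NC mice and below 1 in all HFD and SZ-A mice, and the ratios of Hpd and Hgd to Fah do not overlap between NC and HFD.

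Prodh (ENSMUSG00000003526, chromosome 16, 18060357 to 18090203, minus strand), proline dehydrogenase, was the least abundant of the 9 and the only gene of them called higher in HFD. It ranged from 14.4 to 20.7 FPKM in NC mice (median 16.2) and from 20.6 to 26.7 in HFD mice (median 22.3), with SZ-A values of 11.6 to 27.4 (median 24.3). The highest NC mouse, NC5, was level with the lowest HFD mouse. Prodh was 1.36-fold higher in HFD than in NC (0.45, SE 0.10, adjusted p = 0.00801). In SZ-A mice it stood at 0.38 against NC (adjusted p = 0.226) and at -0.07 against HFD (95% interval -0.46 to 0.32, adjusted p = 0.892). SZ-A5, at 11.6, was below every other mouse of the 3 groups, and without it the difference from NC was called (0.56, adjusted p = 0.0076).

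Of the 9 other transaminase, proline and glutamate genes tested, 2 were called lower in HFD and 1 higher, with a median of 0.14. Gls2, the liver glutaminase, was at 127 ± 22.8 FPKM in NC and 78.5 ± 4.80 in HFD (-0.67, adjusted p = 0.00139). Oat, ornithine aminotransferase, was at 1085 ± 137 and 797 ± 150 (-0.46, adjusted p = 0.0276). The call of Oat was lost in 5 of 24 alternatives: no filter, the common sum and without NC1, HFD1 or HFD4. Glul, glutamine synthetase, was at 296 ± 34.6 and 453 ± 38.8 (0.62, adjusted p = 0.000762). Thus the transcript of the enzyme that releases ammonia from glutamine was lower and that of the enzyme that forms glutamine was higher in HFD.

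Over the 9 genes, the ranges of NC and HFD mice did not overlap for 3 (Hpd, Hgd and Got1), as for 10.5% of all genes tested. Without NC6 they did not overlap for 6 (also Tat, Tdo2 and Gpt2), as for 13.3% of all genes. The same 7 genes were called without NC6, with differences from -2.37 for Got1 to 0.40 for Prodh. In SZ-A against HFD, 0 of the 9 did not overlap, as for 1.28% of all genes. The median difference of the 9 was -0.64 in HFD against NC (-0.03 for all genes), 0.00 in SZ-A against HFD (0.03) and -0.59 in SZ-A against NC (-0.01). The FPKM of all genes summed to 353946 to 424825 in HFD livers, against 402436 to 489187 (NC) and 400729 to 442892 (SZ-A). Scaling every mouse to 1 common sum moved the median of all genes to 0.154 in HFD against NC and to -0.149 in SZ-A against HFD. Relative to that median the 9 genes stood from -2.23 (Got1) to 0.49 (Prodh) in HFD against NC. The call of Gpt2 was lost under the common sum (-0.38, adjusted p = 0.0568 by limma). Its value relative to the median, -0.53, was not tested. On the same scale Tat, Hpd and Hgd stood 0.62, 0.24 and 0.13 above the median in SZ-A against HFD.

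Single mice carried many of the extremes. NC5 was the highest NC mouse for 7 of the 9 genes and above the NC median for all 9, and it also had the largest FPKM sum of the 18 mice (489187). NC3 was the lowest NC mouse for 5 genes and NC6 for 4. HFD6 was the lowest HFD mouse for 4 genes (Fah, Gpt, Gpt2 and Prodh). SZ-A5 was the lowest SZ-A mouse for 5 genes (Hpd, Fah, Tdo2, Gpt and Prodh) and the highest for Tat and Hgd, whereas SZ-A4 was the highest for 5. After the mean of each group was subtracted, the pairs of genes that varied most alike over the 18 mice were Gpt with Fah (r = 0.85), Tdo2 with Hpd (r = 0.85), Prodh with Gpt (r = 0.84) and Got1 with Hgd (r = 0.77). The r of Tat with the other 8 genes ran from -0.23 (Fah) to 0.55 (Gpt2). These r describe mice that share library and scaling, and carry no test.

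**Figure D4:**
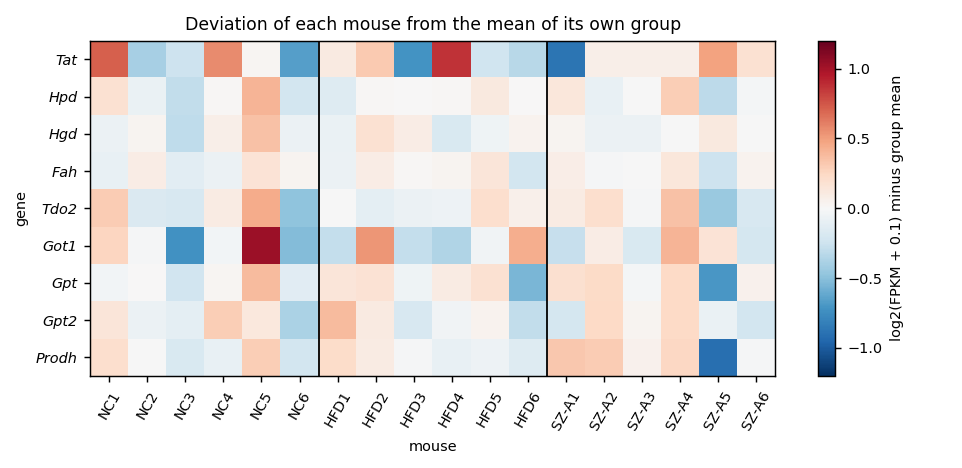
Deviation of each mouse (columns) from the mean of its own group for each gene (rows), in log2(FPKM + 0.1), red above and blue below. NC5 is above its group mean throughout, SZ-A5 is low for Gpt and Prodh but high for Tat, and Tat and Got1 vary most.

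By the same measure, the genes outside the 9 that varied most like Tat were Ddit4 (r = 0.88), a stress- and glucocorticoid-responsive inhibitor of mTOR signalling, Vps53 (0.84) and Ccl6 (0.76). Like the others below, they were picked as the highest r over all genes tested and carry no test. For Hpd they were Ces1b (0.88), Sfxn2 (0.86) and Champ1 (0.86), and for Hgd Adck5 (0.90), Ccdc125 (0.86) and Bcat2 (0.81), the mitochondrial branched-chain aminotransferase. Fah varied most like Dcxr (0.92), Pxmp2 (0.91) and Prodh2 (0.91), the dehydrogenase of hydroxyproline. Dcxr, a sugar reductase, also led for Gpt (0.95), ahead of Vdac1 (0.91) and Spc24 (0.89). For Tdo2 they were Ahcy (0.88), Gm4737 (0.88) and Bnip3 (0.86). For Got1 they were Vamp4 (0.82), Gm28529 (0.81) and Arg1 (0.80), the arginase of the urea cycle. Gm28529 is annotated as antisense, and without strand its reads cannot be told apart from those of a partner gene. Gpt2 varied most like Hsd17b13 (0.85), Sds (0.83), serine dehydratase, and Lhfp (0.81), and Prodh like Selenbp1 (0.90), Rab11fip2 (0.88) and Pcif1 (0.87).

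The other amino acid pathways of the liver were read from lists that leave out the 9 genes. Of 99 genes tested, 29 (29.3%) were called lower and 8 (8.08%) higher in HFD than in NC, against 9.49% and 10.7% of all genes. In SZ-A against HFD 0 were called by limma, and 14 (14.1%) had an unadjusted p under 0.05, close to the 14.8% of all genes, and voom on whole fragments also called 0. In SZ-A against NC 18 (18.2%) were called lower and 9 (9.09%) higher, against 4.3% and 5.31% of all genes. As the lists were chosen with earlier results of these data known, these contrasts with all genes are description and carry no test. Of the 37 genes called in HFD against NC, 22 kept their call under every alternative that tested them and 15 lost it under at least 1. Without NC6, 3 were lost: Qdpr, Dmgdh and Creb3l3.

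In HFD against NC, of 13 serine, glycine and threonine genes, 5 were called lower and 2 higher (median -0.23). The lower call of Dmgdh (-0.36, adjusted p = 0.0434) was lost in 16 of 24 alternatives, among them median-ratio scaling and voom on whole fragments. Sdsl, a serine dehydratase-like enzyme, was at 27.1 ± 22.2 FPKM in NC and 6.85 ± 1.36 in HFD (-1.72, adjusted p = 0.00302). Agxt, the peroxisomal aminotransferase that removes glyoxylate, was at 296 ± 97.1 and 120 ± 19.2 (-1.25, adjusted p = 0.000751). Sds fell by 1.02 (adjusted p = 0.0108), and Gldc, of the glycine cleavage system, fell by 0.83 (adjusted p = 0.00894). Of 4 histidine genes, 2 were called lower and 0 higher: Hal, histidine ammonia-lyase, fell by 0.94 (adjusted p = 0.0256) and Amdhd1 by 0.73 (adjusted p = 0.00708). The call of Hal was lost in 5 of 24 alternatives: no filter, the common sum, sample weights, the replicate block and without NC1. The count of calls in either direction for this list was 1 to 3 over the alternatives. Of 4 lysine genes 1 was called, Aass, which starts lysine breakdown and fell by 1.13 (adjusted p = 0.00305).

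Of 22 genes of branched-chain amino acid breakdown, 1 was called lower and 2 higher, with a median of 0.07: Acad8 fell by 0.30 (adjusted p = 0.00794), Mccc1 rose by 0.36 (adjusted p = 0.00545) and Hibadh rose by 0.30 (adjusted p = 0.0417). Under the common sum 8 of the 22 were called, and the call of Acad8 was lost. The call of Hibadh was lost in 9 of the 12 fits that left out a mouse. Of 12 amino acid transporters, 7 were called lower and 0 higher (median -0.46). The calls of Slc38a4, Slc25a12 and Slc25a13 were lost under the common sum. The count of calls in either direction was 6 to 8 over the alternatives, and under the common sum it included genes not among these 7. Slc25a22, a mitochondrial glutamate carrier, was at 96.1 ± 27.5 FPKM in NC and 31.9 ± 3.77 in HFD (-1.56, adjusted p = 4.12e-05). Slc25a15, the mitochondrial ornithine carrier, was at 112 ± 18.9 and 49.7 ± 4.44 (-1.16, adjusted p = 4.1e-05). Slc7a2, a transporter of cationic amino acids, fell by 0.83 (adjusted p = 0.00468), and Slc16a10, a transporter of aromatic amino acids, fell by 0.81 (adjusted p = 0.00123).

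**Figure D5:**
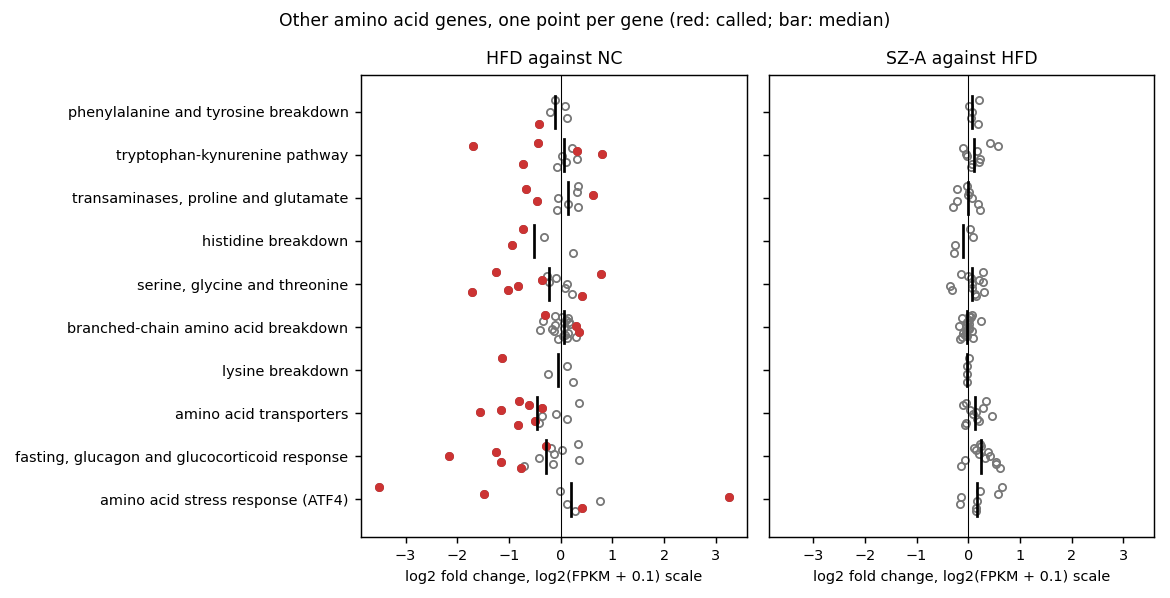
Log2 fold changes (horizontal axis) of the tested genes of each list, 1 point per gene, red where called, with the list's median as a bar. In HFD against NC the transporters have 7 of 12 genes called lower and branched-chain breakdown has 3 of 22 genes called, and in SZ-A against HFD no point is called.

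Genes known to follow fasting, glucagon and glucocorticoids were read beside Tat and Tdo2. Of 13 tested, 5 were called lower and 0 higher in HFD than in NC (median -0.29), against 9.49% and 10.7% of all genes. Leaving out any 1 mouse gave 1 to 4 calls, with 1 without HFD6, and only Pck1 was called under all 24 alternatives. Pck1, which controls gluconeogenesis, was at 1167 ± 238 FPKM in NC and 525 ± 95.6 in HFD (-1.15, adjusted p = 0.000253). Igfbp1 was at 227 ± 225 and 33.1 ± 12.9 (-2.16, adjusted p = 0.0367). G6pc, which releases glucose, fell by 1.26 (adjusted p = 0.0305), and Tsc22d3, a glucocorticoid target, fell by 0.77 (adjusted p = 0.0327). The call of Tsc22d3 was lost in 10 of 24 alternatives. Fkbp5 and Per1 of the same list were not called (-0.18, adjusted p = 0.852, and -0.15, adjusted p = 0.742). Nr3c1 and Cebpb lay higher without a call (0.35 and 0.34). In SZ-A against HFD 11 of the 13 lay higher (median 0.25 against 0.03 for all genes), as did 63 of the 99 genes of all these lists together. None of the 13 was called, and 5 had an unadjusted p under 0.05, against 14.8% of all genes. Pck1 in SZ-A livers was at 762 ± 145 FPKM (0.53, adjusted p = 0.133).

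Of 8 genes of the ATF4 response to amino acid shortage, 2 were called lower and 2 higher in HFD than in NC (median 0.20). Asns, asparagine synthetase, was at 4.33 ± 1.14 FPKM (NC), 0.326 ± 0.223 (HFD) and 0.665 ± 0.596 (SZ-A) (-3.52 in HFD against NC, adjusted p = 4.35e-05). Chac1, which degrades glutathione, was at 0.376 ± 0.186 FPKM (NC), 4.41 ± 1.58 (HFD) and 5.5 ± 5.64 (SZ-A) (3.26 in HFD against NC, adjusted p = 2.78e-05). These 2 known ATF4 targets therefore stood on opposite sides. Atf5, a related transcription factor, fell by 1.49 (adjusted p = 0.000266), and Shmt2, the mitochondrial serine hydroxymethyltransferase, rose by 0.42 (adjusted p = 0.00271). At levels near or under 1 FPKM, such as those of Asns in HFD and Chac1 in NC, the added 0.1 makes the printed difference smaller than that of the FPKM.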

How the data were processed

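Total liver RNA of 18 mice (6 NC, 6 HFD, 6 SZ-A, grouped by sample title) was poly-A selected, made into libraries with a kit that does not keep strand, and sequenced as paired ends. Per the labels, the authors used HISAT2 2.0.5 on mm10 and featureCounts 1.5.0-p3. The authors deposited FPKM per gene with the gene length in bases. FPKM times length gave whole fragments for 100% of values within 0.05, from 17163191 to 20493907 fragments per mouse, with the library size behind the FPKM at 0.9325 to 1.1414 of that total.

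FPKM is not a count, so log2(FPKM + 0.1) of the 10216 genes with a mean of at least 1 FPKM was tested with limma 3.58.1 (lmFit, eBayes with trend, R 4.3.3), each comparison on its own 2 groups without covariates. The adjustment was Benjamini-Hochberg over all genes tested. The fit was tested on simulated data. Other steps used Python 3.11.15, numpy 2.4.6, pandas 2.3.3 and matplotlib 3.10.9. Replicate means are given as mean ± SD. Mice are taken as separate animals, so the p-values measure the spread between animals.

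The members and lists were chosen with earlier results of these data known. Named genes were the 9 members, from each other list at most the 4 called genes with the largest change per comparison, and for each member the 3 genes most alike by r. Haao, Got2, Dmgdh, Creb3l3, Fkbp5, Per1, Nr3c1, Cebpb, Slc38a4, Slc25a12 and Slc25a13 fall outside that rule and were named after their values were seen. The same holds for Aadat and Pck1 in SZ-A against HFD, and for the set of genes read without NC6. Lists are described by counts and medians and not tested as sets. Mmut, Pycr3 and Tf were found under older symbols. No member shares exon bases with another gene. Alternatives were pseudocounts of 1 and 0.01, no filter, a mean of at least 5 FPKM, a common sum per mouse, median-ratio scaling, voom on whole fragments, 1 fit of all 3 groups, a replicate block, weights per sample, eBayes with no trend, no fold change limit, and each mouse left out in turn. No column of fold changes or p-values was present in the table.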

Additional observations from a re-analysis of the deposited data

Results flagged for a closer look

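In 27 sets of 6 mice (9 genes in 3 groups), 3 had a mouse whose gap to its nearest neighbour took more than 0.625 of the whole range, where chance gives about 1 in 20. Gpt in NC5 was 156 FPKM, the highest of NC, with the next mouse at 122 and a gap of 0.633 of the range. Gpt in SZ-A5 was 66.3 FPKM, the lowest of SZ-A, with the next mouse at 106 and a gap of 0.644 of the range. Prodh in SZ-A5 was 11.6 FPKM, the lowest of SZ-A, with the next mouse at 21.6 and a gap of 0.631 of the range. The same mouse, SZ-A5, had the highest Tat (750 FPKM) and Hgd (243 FPKM) of its group.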

How the results depend on the processing

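Each comparison was refitted under 24 alternatives, 12 that change a setting and 12 that leave out a mouse. Of 216 refitted differences per comparison (9 genes under 24 alternatives), 209 in HFD against NC, 203 in SZ-A against HFD and 205 in SZ-A against NC kept their direction and their side of the threshold. Tat, Hpd, Hgd, Tdo2 and Got1 were called lower in HFD than in NC in all 24, with adjusted p-values by limma from 9.79e-06 (Got1) to 0.0201 (Tdo2). Gpt2 was lost under a common sum (-0.38, adjusted p = 0.0568) and Prodh in 1 fit of all 3 groups (0.45, adjusted p = 0.0553). The 9 genes gave 6 to 7 calls in HFD against NC, 0 under every alternative in SZ-A against HFD and 3 to 6 in SZ-A against NC. In SZ-A against NC, Tdo2 was lost with no filter (adjusted p = 0.0881), Hpd was called in 1 fit of all 3 groups (adjusted p = 0.0475), and Tat and Prodh were called with sample weights (adjusted p = 0.0379 and 0.0198). Besides the mice named in the report, no mouse left out changed a call of the 9 genes. Under a common sum Gpt in HFD against NC turned to 0.04, and Hgd and Fah in SZ-A against HFD to -0.02 and -0.08. With sample weights Gpt in SZ-A against HFD turned to 0.02. With single mice left out, differences near 0 changed sign: Fah in HFD against NC ran from -0.02 to 0.05, and in SZ-A against HFD Gpt ran from -0.12 to 0.13, Gpt2 from -0.07 to 0.06 and Prodh from -0.13 to 0.11.

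Over all genes, 2062 were called in HFD against NC, 15 in SZ-A against HFD and 981 in SZ-A against NC. The first count was 1271 with a mean of at least 5 FPKM, where fewer genes were tested, and 1646 to 2145 without single mice. For SZ-A against HFD it was 0 with no filter, 26 with a mean of at least 5 FPKM, 216 with a common sum, 31 with voom, 35 in 1 fit of all 3 groups and 233 with sample weights. Leaving out mice gave 2 to 49, with 2 without HFD4 or SZ-A6, 3 without HFD2 or SZ-A4, 4 without HFD1 or SZ-A3, 6 without SZ-A1, 49 without SZ-A2, 45 without HFD5 and 31 without SZ-A5. For SZ-A against NC it was 564 with no filter, 1682 with sample weights and 601 to 1179 without single mice, with 601 without SZ-A3 and 629 without SZ-A6. Of the other lists in HFD against NC, calls moved with the setting for phenylalanine and tyrosine (1, with 0 to 2 under alternatives), histidine (2, with 1 to 3), lysine (1, with 1 to 3), branched-chain (3, with 2 to 8), fasting (5, with 1 to 6) and ATF4 genes (4, with 2 to 5). Counts also varied for the kynurenine (5, with 4 to 6), transaminase (3, with 2 to 4), serine (7, with 6 to 8) and transporter lists (7, with 6 to 8). All these list counts take calls in either direction. In SZ-A against HFD, where the lists had 0 calls, the kynurenine, serine, transporter and fasting lists had up to 1 each under some alternative. The cause of these shifts was not tested. The common sum gave 334 lower and 2100 higher calls in HFD against NC (13.7% lower, against 47.0% as reported) and 206 lower and 10 higher in SZ-A against HFD (95.4% lower, against 46.7%). Mice with the same number deviated together only weakly or not at all (correlations from -0.117 to 0.292). This gives no clear sign that the numbers pair mice but cannot settle it. With the replicate block the calls were 1647, 0 and 922 over all genes, and 7, 0 and 4 of the 9 genes. FPKM of the 9 genes rested on at least 1586 fragments per mouse.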
